A study of Rattus norvegicus with 30 samples.

Results

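Amino acid transporters of the rat liver were followed across 6 diets. The 8 genes, taken by name, were *Slc7a2*, *Slc3a1*, *Slc3a2*, *Slc38a2*, *Slc38a3*, *Slc38a4*, *Slc43a1* and *Slc6a13*. Each was annotated to exactly 1 probe set of the array, and the array named 14217 genes in all. All 8 lay above the filter on dim signals, which kept 18625 of 31042 probe sets for testing.

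The livers came from 30 male Sprague-Dawley rats that arrived at 4 weeks of age and ate a commercial diet for 5 days before the trial. The rats then ate 1 of 6 diets for 14 days, with 5 rats per diet and 1 Affymetrix array per rat. Each diet held 200 g/kg of protein. Soy protein was the source in SI, which had added isoflavones, and in S, which did not. Casein was the source in CI, with added isoflavones, and in C, the control. Tofu, freeze-dried, and casein each gave 100 g/kg of protein in T10, and tofu gave all 200 g/kg in T20. The isoflavones of SI and CI were set to the level of T20, which carried its own. Tofu therefore differed from casein in more than its protein, and whole liver mixed all of its cell types.

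Amino acids cross the plasma membrane on carriers that are specific for groups of side chains. Some carriers are single proteins, and others pair a heavy chain, which brings the complex to the membrane, with a light chain that does the transport. The liver takes up amino acids from portal blood for protein synthesis, urea formation and gluconeogenesis, and several of its carriers respond to hormones or to amino acid supply.

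Values are log2 intensities, where a difference of 1 is a doubling of the deposited signal. They are given per array in the order of replicates 1 to 5, or as mean ± SD (n = 5). Differences are given ± SE from one limma fit over all 6 diets, and a gene was said to rise or fall where its p, adjusted over all tested probe sets, was under 0.05. Levels of different genes are not set against each other, because probe sets differ in their response. Median intensities lay between 216.9 and 254.7 over the 30 arrays, and arrays of the same diet correlated at 0.947 to 0.972. The ratio of 3' to 5' *Gapdh* signal, a sign of RNA quality, lay between 1.32 and 1.58 for T10 replicates 3, 4 and 5, against 0.97 to 1.25 for the remaining 27. The same ratio for beta-actin did not set these T10 arrays apart. It was 2.35 to 2.43 in them and 1.84 to 2.89 over all 30 arrays. All 8 hepatocyte markers on the array lay above the filter.

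Only *Slc6a13* and *Slc3a2* passed the threshold with diet, and in SI against CI, where both passed, they moved in opposite directions. A missed threshold was not taken as no change. Without passing, *Slc38a3* had -0.40 (95% interval -0.77 to -0.04) and *Slc43a1* -0.43 (-0.79 to -0.06) in S against C. *Slc7a2* had -0.56 (-1.11 to -0.01) in SI against CI. For *Slc3a1*, *Slc38a2* and *Slc38a4* the intervals of all comparisons included no difference. By the moderated F test over all diets, 2 of the 8 genes differed, *Slc6a13* (adjusted p = 0.000127) and *Slc3a2* (adjusted p = 0.0154). The same test called 12.9% of all tested probe sets. *Slc6a13* fell in both soy protein comparisons, and *Slc3a2* rose in the one with isoflavones. In this fit none of the 8 passed in a comparison of tofu with casein, or for added isoflavones.

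By comparison, the counts over the 8 genes were as follows. In S against C 1 of 8 was called, *Slc6a13*, beside 7.25% of all tested probe sets, which split into 4.27% lower and 2.99% higher. There 7 of 8 differences were below 0, beside 56.9% over all tested probe sets, and 6 of these 7 did not pass. The median was -0.37 over the 8 genes and -0.04 over all tested probe sets. In SI against CI 2 of 8 were called, beside 11.6% of all tested probe sets, or 5.5% higher and 6.14% lower. The median was -0.04 over the 8 genes and -0.02 over all. In T20 against SI 1 of 8 was called, beside 3.51% of all tested probe sets, or 1.63% higher and 1.87% lower. The balance of these table-wide calls depended on the scaling of the arrays. With each array centred on its median, 12% were higher and 2.88% lower in SI against CI, 2.86% higher and 2.75% lower in S against C, and 0.773% higher and 3.48% lower in T20 against SI. That scaling moved the median of all probe sets in SI against CI by 0.11. Relative to that median, *Slc6a13* stood at -0.57 and *Slc3a2* at 0.58 in both scalings. This was fixed in advance, because centring shifts all probe sets of an array equally. The differences themselves became -0.48 for *Slc6a13* (adjusted p = 0.0325) and 0.67 for *Slc3a2* (adjusted p = 0.00684), and both still passed.

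Limma called 0 of 8 in the remaining comparisons. For T10 against C that stood beside 0.322% of all tested probe sets, for T20 against C beside 4.5%, and for T20 against CI beside 2.12%. At an unadjusted p under 0.05, 1 of 8 passed in T10 against C (*Slc3a2*) and 0 in T20 against C and in T20 against CI. In the comparisons with calls, 4 of 8 had such a p in S against C, 3 in SI against CI and 2 in T20 against SI. Over all 18625 tested probe sets, 3981, 5123 and 3508 had it there. T20 against T10, CI against C and SI against S had 0 of 8 at an unadjusted p under 0.05 as well, and 0% of all tested probe sets were called there. For the difference between the isoflavone effects on soy protein and on casein the count was 0 of 8, also unadjusted, beside 0.0161%. In SI against S 7 of 8 differences were above 0, beside 52.9% over all tested probe sets. The median there was 0.16 over the 8 genes and 0.01 over all tested probe sets.

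**Figure D1:**
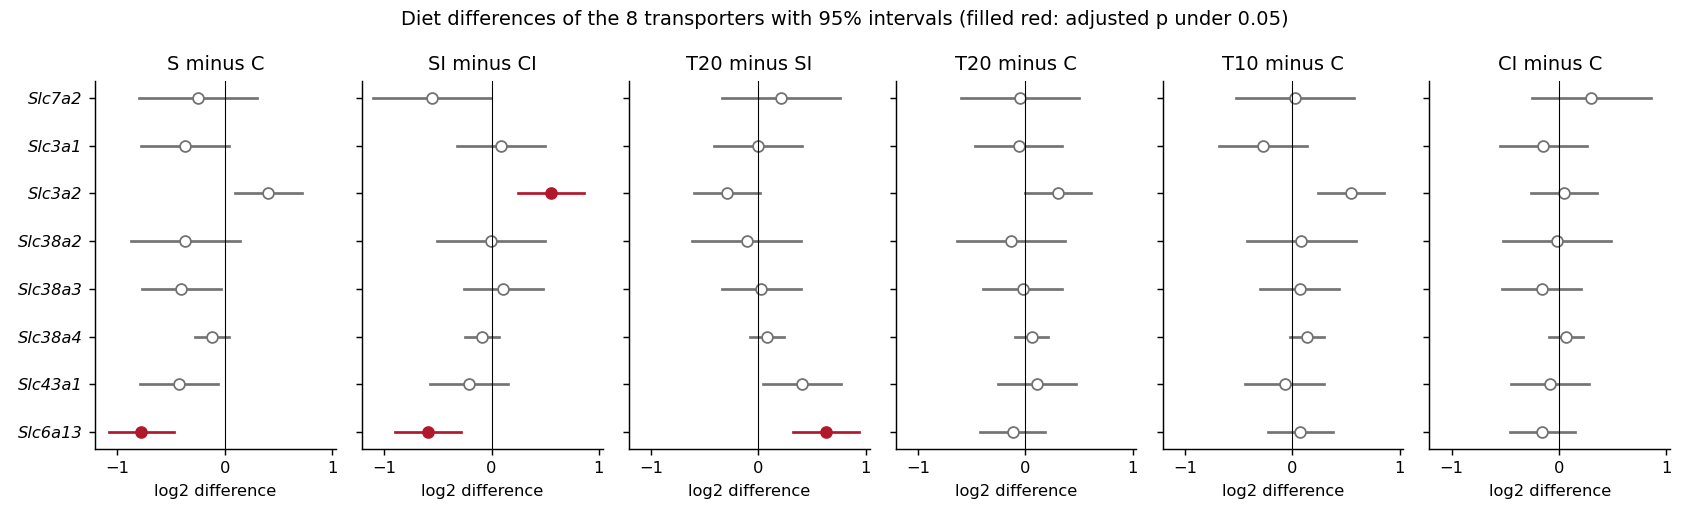
Log2 differences (x axes) of the 8 transporters (y axis) in 6 comparisons, with 95% intervals, and filled red points where the adjusted p was under 0.05. In S minus C 7 of 8 points lie below 0, beside 56.9% of all tested probe sets. Only *Slc6a13*, at -0.77, is filled there.

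**Figure D2:**
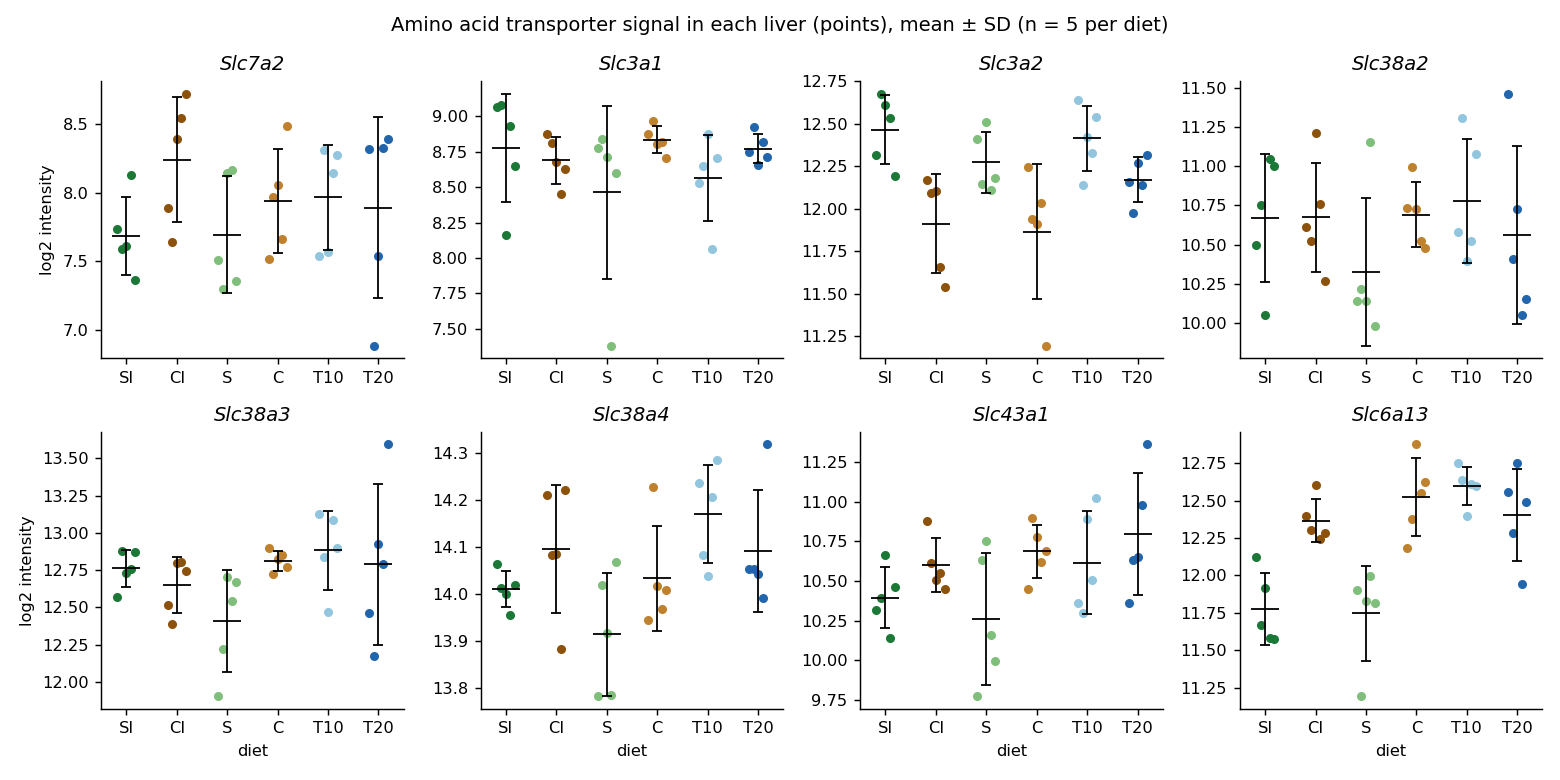
Log2 intensity of the 8 transporters (y axes, own range in each panel) by diet (x axes), with 1 point per liver and the mean ± SD of 5 livers as a black bar. *Slc6a13* sits between 11.19 and 12.13 in the 10 soy protein livers and between 11.94 and 12.88 in the other 20, and *Slc3a2* is lowest in CI and C.

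*Slc6a13* encodes a sodium- and chloride-dependent carrier of GABA and taurine, known as GAT2, which in the mouse is found on liver and kidney cells. It had log2 intensities of 12.13, 11.67, 11.92, 11.58 and 11.58 in the SI livers, against 12.40, 12.31, 12.60, 12.24 and 12.28 in the CI livers. All SI livers lay below all CI livers. It had 11.91, 11.19, 11.83, 11.99 and 11.82 in the S livers, against 12.18, 12.38, 12.88, 12.55 and 12.62 in the C livers. Again no S liver reached the lowest C liver. The signal was 12.75, 12.64, 12.40, 12.61 and 12.60 in T10 and 12.55, 12.28, 12.75, 11.94 and 12.49 in T20. Apart from T20 replicate 4, the tofu livers lay above every soy protein liver.

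In the fit, *Slc6a13* fell by 0.77 ± 0.15 in S against C, or 1.71-fold (adjusted p = 0.00129, 95% interval of the difference -1.08 to -0.47). It fell by 0.59 ± 0.15 in SI against CI, or 1.51-fold (adjusted p = 0.0103, interval -0.90 to -0.29). These comparisons share no array. The first call stood without any single array, with adjusted p from 0.000583 to 0.00678, and so did the second, from 0.00448 to 0.0350.

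The T20 and SI diets were matched for isoflavones and differed in the soy material. *Slc6a13* was 1.55-fold higher in T20 than in SI, with a difference of 0.63 ± 0.15 (adjusted p = 0.0172). The ranges of the groups overlapped, since T20 replicate 4, at 11.94, lay below the highest SI liver at 12.13. The call was lost without any one of SI replicate 2, T20 replicate 1 and T20 replicate 3 (leaving out single arrays gave adjusted p 0.00457 to 0.0559), and when only the T20 and SI arrays were fitted (adjusted p = 0.0968). The T20 against SI and SI against CI comparisons share the SI arrays.

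Between tofu and casein the *Slc6a13* difference did not pass. It was 0.08 ± 0.15 for T10 against C (interval -0.23 to 0.38) and -0.12 ± 0.15 for T20 against C (interval -0.42 to 0.19). Added isoflavones gave -0.16 ± 0.15 in CI against C and 0.03 ± 0.15 in SI against S, with intervals of -0.46 to 0.15 and -0.28 to 0.33. The difference between those isoflavone effects was 0.18 ± 0.21 (adjusted p = 0.779, interval -0.25 to 0.61). Ordered by mean, the diets ran T10 (12.60 ± 0.13), C (12.52 ± 0.26), T20 (12.40 ± 0.31), CI (12.37 ± 0.14), SI (11.77 ± 0.24) and S (11.75 ± 0.32). The step from CI to SI was the only one larger than both SDs beside it.

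Markers of liver zones and of other cell types moved in the same comparisons, and pericentral genes moved in tofu against casein as well. In RNA from whole liver, fewer cells of a type and less RNA per cell cannot be told apart. The marker counts below stand beside 11.6% of all tested probe sets called in SI against CI and 7.25% in S against C. Of 5 tested pericentral genes, 4 rose and 1 fell in SI against CI, and 2 rose and 1 fell in S against C. *Slc1a2* was 1 of those that rose in each, from below the filter level. Of the other 4, with quantile-normalized arrays, 1 rose and 1 fell in SI against CI. The summed intensity of the 6 listed pericentral genes on the array, with *Lgr5* from below the filter, was 56355 to 77028 in SI and 52397 to 57214 in CI. It was 49196 to 76472 in S and 49876 to 64305 in C. In tofu against casein, where *Slc6a13* did not pass, 0 of the 5 fell. There 3 rose in T20 against C, 2 in T10 against C and 4 in T20 against CI. Without *Slc1a2* these were 2, 1 and 3 of 4. Calls over all tested probe sets were 4.5%, 0.322% and 2.12%. The sum was 69181 to 109383 in T20 and 82970 to 92381 in T10, above all C and CI livers. *Oat* (ornithine aminotransferase) fell by 1.14 in S against C and by 0.76 in SI against CI, and was 1.93 higher in T20 than in SI. *Glul* (glutamine synthetase) rose by 0.79 in SI against CI and by 0.45 in S against C.

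Of 7 periportal genes, *Hal* (0.34) and *Cdh1* (0.55) rose in SI against CI, while *Ass1* (-0.56) and *Gls2* (-0.48) fell in S against C. Their summed intensity was 117230 to 150008 in SI and 116215 to 141761 in CI, and 113340 to 124741 in S and 110211 to 153108 in C. Kidney tubule, where *Slc6a13* and *Slc3a1* are also known, had 3 of 9 markers above the filter, with sums of 1379.9 to 1647 in SI and 1232 to 1615 in CI. In SI against CI *Slc5a2* rose by 0.73, *Slc34a1* had -0.21 and *Lrp2* -0.05, neither passing, while *Slc12a1* lay near the floor of 4 with a mean of 4.27. Exocrine pancreas had 2 of 7 markers above the filter. Of these *Cela1* fell by 0.68 in SI against CI and was 1.13 higher in T20 than in SI, with list sums of 2906 to 6411 in T20 and 1774 to 2654 in SI. Of the 8 hepatocyte markers *Serpina1* rose by 0.24 in SI against CI and *Hnf4a* fell by 0.53 in S against C, with list sums of 398115 to 495715 in SI, 384718 to 439140 in CI, 379776 to 431056 in S and 354979 to 463309 in C. In SI against CI 1 of 6 stellate cell and fibroblast markers rose (*Acta2*, 0.33) and 1 of 4 tested intestinal markers fell (*Fabp2*, by 1.14). The sums over all genes of each list on the array overlapped. They were 13248 to 19323 in SI and 12055 to 19323 in CI for the first list, and 21847 to 27608 in SI and 21840.0 to 33947 in CI for the second. The part of these markers in the transporter results was not tested.

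*Slc3a2* encodes the heavy chain CD98, also called 4F2hc, which pairs with light chains that exchange large neutral, cationic or acidic amino acids. RefSeq gives it a pair of transcription starts on the minus strand of chromosome 1 in the GRCr8 build. The 250 bases before each start are shown because *Slc3a2* is the called gene for which the table held a promoter, and the capitals mark the GC box (GGGCGG, or CCGCCC on the other strand).
Slc3a2 inner start, chr1:215039671-215039920, minus strand: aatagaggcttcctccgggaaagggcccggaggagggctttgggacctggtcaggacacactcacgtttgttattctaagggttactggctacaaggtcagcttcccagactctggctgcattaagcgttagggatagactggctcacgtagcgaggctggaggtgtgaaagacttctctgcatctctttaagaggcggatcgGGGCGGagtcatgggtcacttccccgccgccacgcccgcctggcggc
Slc3a2 outer start, chr1:215048065-215048314, minus strand: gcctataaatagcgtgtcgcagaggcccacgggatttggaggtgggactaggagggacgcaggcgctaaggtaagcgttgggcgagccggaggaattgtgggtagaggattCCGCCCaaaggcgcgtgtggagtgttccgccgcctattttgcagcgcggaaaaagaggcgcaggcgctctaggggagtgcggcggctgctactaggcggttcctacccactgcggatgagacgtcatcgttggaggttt
The first window held 58.4% G and C with 1 GC box beginning 47 bases before the start, and the second held 60.8% with 1 GC box beginning 139 bases before it. On either strand, 30.5% of 33469 RefSeq windows of the same length held that motif. The letters TGATGNAA, the core of amino acid response elements, were in neither *Slc3a2* window nor in those of *Slc3a1*, *Slc38a2*, *Slc38a4* and *Slc43a1*, and in 3.4% of all windows. Only the 250 bases before each start were searched, so elements elsewhere in these genes were not examined. TATAAA was found in the outer *Slc3a2* window and in 12.9% of all windows. *Slc6a13*, *Slc7a2* and *Slc38a3* are named only.

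*Slc3a2* had log2 intensities of 12.32, 12.68, 12.61, 12.53 and 12.19 in the SI livers, against 12.17, 12.09, 12.10, 11.66 and 11.54 in the CI livers. The groups did not overlap, though the lowest SI liver and the highest CI liver nearly met. It had 12.41, 12.15, 12.51, 12.11 and 12.18 in the S livers, against 12.25, 11.94, 11.91, 12.03 and 11.20 in the C livers. Here the ranges overlapped through C replicate 1, and C replicate 5 was the lowest of all 30 arrays. The tofu livers had 12.64, 12.14, 12.42, 12.33 and 12.54 in T10 and 12.16, 11.98, 12.27, 12.14 and 12.31 in T20.

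*Slc3a2* rose by 0.55 ± 0.15 in SI against CI, or 1.47-fold (adjusted p = 0.0174, interval 0.24 to 0.86). The call was lost without any one of CI replicate 4, CI replicate 5 and SI replicate 2, and single arrays left out gave adjusted p from 0.00497 to 0.0642. In S against C the difference was 0.41 ± 0.15 and missed the threshold (adjusted p = 0.10), which it crossed without C replicate 1 (adjusted p = 0.0483). The difference between the isoflavone effects on soy protein and on casein was 0.15 ± 0.21 (adjusted p = 0.835).

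Along the tofu series *Slc3a2* averaged 11.86 ± 0.40 in C, 12.41 ± 0.19 in T10 and 12.17 ± 0.13 in T20. The difference from C was 0.55 ± 0.15 in T10 (adjusted p = 0.138) and 0.31 ± 0.15 in T20 (adjusted p = 0.250), so neither passed. With the arrays scaled to equal median and spread, both passed (adjusted p = 0.0458 for T10 and 0.0350 for T20), as did S against C (adjusted p = 0.0453). Without T10 replicates 3, 4 and 5, which had the high *Gapdh* ratio, the *Slc3a2* T10 difference was 0.52 ± 0.21, close to that with all 5 arrays, and on the 2 T10 arrays left it had adjusted p = 0.563. Ordered by mean, the diets ran SI (12.46 ± 0.20), T10, S (12.27 ± 0.18), T20, CI (11.91 ± 0.29) and C, and no neighbours in that order differed by more than the larger of their SDs.

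Of 6 listed light chains that pair with CD98, *Slc7a5*, *Slc7a7* and *Slc7a8* lay above the filter. In SI against CI their median difference was 0.10, and 1 of these 3 was called, beside 11.6% of all tested probe sets. *Slc7a5* (LAT1, a carrier of large neutral amino acids) averaged 7.71 ± 0.19 in SI and 7.61 ± 0.19 in CI, and *Slc7a8* (LAT2) 8.65 ± 0.18 in SI and 8.75 ± 0.16 in CI. Neither was called in any of the 10 comparisons. *Slc7a7*, the light chain of a cationic amino acid exchanger, had 8.65, 8.22, 8.37, 8.37 and 8.75 in the SI livers, against 8.28, 8.52, 7.44, 7.72 and 7.71 in the CI livers. CI replicates 1 and 2 lay within the SI range. *Slc7a7* rose by 0.54 ± 0.18 (adjusted p = 0.0488), and the call held in 9 of the 30 fits that left out 1 array (adjusted p 0.0128 to 0.139). Arrays whose absence ended it included all 5 SI arrays and CI replicates 3, 4 and 5.

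**Figure D3:**
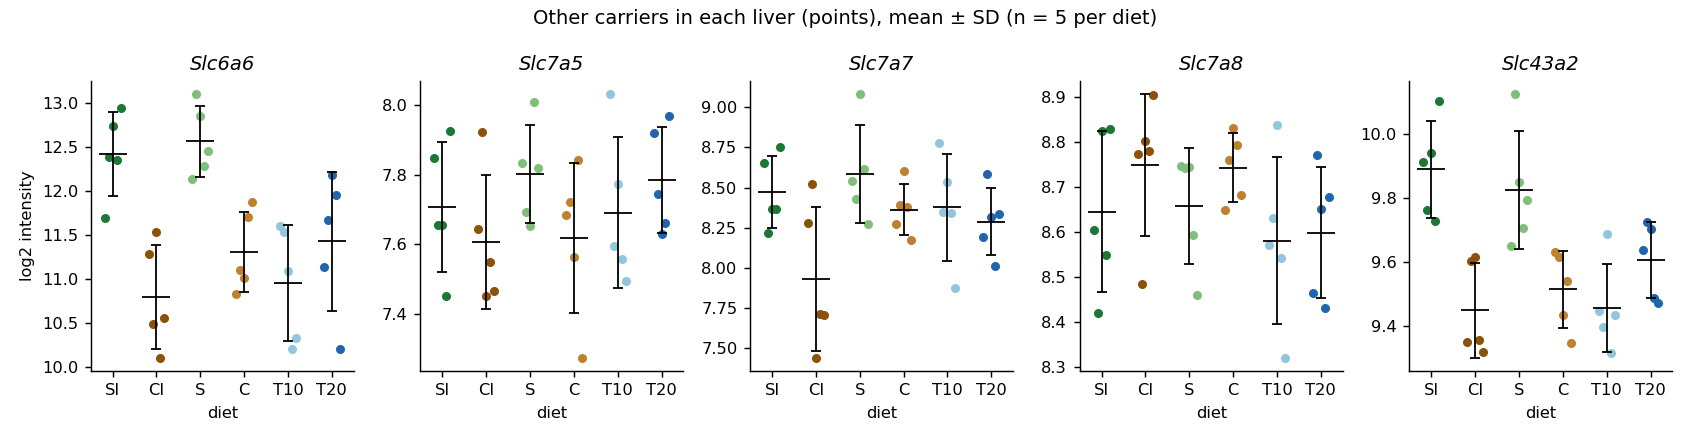
Log2 intensity (y axes, own range in each panel) of 5 further carriers by diet (x axis), with 1 point per liver and the mean ± SD of 5 livers as a black bar. *Slc6a6* and *Slc43a2* have their highest means in SI and S, while *Slc7a5* and *Slc7a8* overlap across all diets.

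*Slc3a1* encodes rBAT, the heavy chain of the cystine and cationic amino acid carrier best known from kidney and intestine. Its levels were 9.06, 9.08, 8.17, 8.93 and 8.65 in SI and 8.87, 8.81, 8.67, 8.45 and 8.63 in CI, which overlapped. They were 8.78, 8.84, 8.71, 7.38 and 8.60 in S and 8.88, 8.96, 8.80, 8.82 and 8.71 in C, where S replicate 4 stood far below the rest. S against C gave -0.37 ± 0.20 (adjusted p = 0.288, interval -0.78 to 0.04). Means in C, T10 and T20 were 8.83 ± 0.09, 8.56 ± 0.31 and 8.77 ± 0.10. Its known light chains, *Slc7a9* and *Slc7a13*, lay below the filter.

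*Slc7a2* encodes CAT2, a carrier of arginine, lysine and ornithine. It was close to the filter level of 7.39, with 4 of its 30 values below that level. It had 7.73, 7.59, 7.61, 8.13 and 7.36 in SI and 7.89, 7.64, 8.39, 8.55 and 8.72 in CI, with overlap between the groups. The difference of -0.56 ± 0.27 did not pass (adjusted p = 0.177, interval -1.11 to -0.01). *Slc7a2* averaged 7.69 ± 0.43 in S and 7.94 ± 0.38 in C, then 7.97 ± 0.38 in T10 and 7.89 ± 0.66 in T20. Its widest spread was in T20, where replicate 2 had 6.88.

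The system A and system N carriers of the *Slc38* family bring in small neutral amino acids and glutamine with sodium. *Slc38a2* (SNAT2), which in cultured cells is raised when amino acids are scarce, ranged from 10.05 to 11.04 in SI and from 10.27 to 11.21 in CI, so the groups overlapped widely. It had 10.14, 10.21, 10.14, 11.15 and 9.98 in S and 10.74, 10.99, 10.73, 10.52 and 10.48 in C. In S, 4 of 5 livers lay below all C livers and replicate 4 lay above them all. The difference was -0.37 ± 0.25 in S against C (adjusted p = 0.421, interval -0.87 to 0.14) and close to 0 in SI against CI (interval -0.51 to 0.50).

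*Slc38a3* (SNAT3), which moves glutamine in either direction across the hepatocyte membrane, had 11.90, 12.22, 12.70, 12.54 and 12.67 in S, against 12.90, 12.72, 12.82, 12.85 and 12.77 in C. All S livers lay below all C livers, by a narrow margin. The difference was -0.40 ± 0.18 and did not pass (adjusted p = 0.179, interval -0.77 to -0.04). In SI it averaged 12.76 ± 0.13 and in CI 12.65 ± 0.19, so the difference had the opposite sign, 0.11 ± 0.18. The difference between the isoflavone effects on soy protein and on casein was 0.51 ± 0.25 (adjusted p = 0.544). Its T20 livers ranged from 12.17 to 13.59, the widest spread of any diet for this gene.

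*Slc38a4* (SNAT4), a system A carrier prominent in liver, had the smallest SE of the 8 genes. Its mean was 14.01 ± 0.04 in SI, 14.10 ± 0.14 in CI, 13.91 ± 0.13 in S, 14.03 ± 0.11 in C, 14.17 ± 0.10 in T10 and 14.09 ± 0.13 in T20. The SE of each difference was 0.08. The S against C difference was -0.12 (adjusted p = 0.401), and the interval of T20 against C, -0.10 to 0.22, did not reach 1 in either direction.

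*Slc43a1* encodes LAT3, a sodium-independent carrier of branched-chain and other large neutral amino acids. It had 9.77, 10.63, 10.75, 10.16 and 9.99 in S, against 10.45, 10.90, 10.78, 10.62 and 10.69 in C. The lowest 3 of these livers were S livers, and the ranges overlapped. S against C gave -0.43 ± 0.18 (adjusted p = 0.151, interval -0.79 to -0.06) and SI against CI gave -0.21 ± 0.18 (adjusted p = 0.480). T20 against SI gave 0.40 ± 0.18 (adjusted p = 0.211, interval 0.04 to 0.77).

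For these 6 genes too, neighbours in the order of diet means differed by no more than the larger of their SDs. The exception was *Slc43a1* between CI (10.60 ± 0.17) and SI (10.39 ± 0.19).

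The wider family of carriers held 32 further tested genes, of 49 on the array. In SI against CI 6 of these 32 rose and 0 fell, where 5.5% of all tested probe sets rose and 6.14% fell, a balance that turned to 12% and 2.88% with median-centred arrays (there 8 of the 32 rose and 0 fell). In S against C 4 rose and 0 fell, where 2.99% of all tested probe sets rose and 4.27% fell. The S against C count was 2 without either C replicate 3 or S replicate 2, and ran from 2 to 5 over single arrays left out. The probe set that stands for *Slc6a9* did not pass in S against C (-0.27 ± 0.12, adjusted p = 0.178), whereas another of its probe sets did (-0.34 ± 0.10, adjusted p = 0.0293). Their median difference was 0.05 in SI against CI and 0.02 in S against C. *Slc6a6*, the taurine transporter, had 11.69, 12.38, 12.74, 12.35 and 12.94 in SI, against 11.28, 10.49, 11.53, 10.10 and 10.56 in CI. It had 12.14, 13.10, 12.85, 12.28 and 12.46 in S, against 10.83, 11.10, 11.01, 11.70 and 11.87 in C. Neither pair overlapped.

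*Slc6a6* rose by 1.63 ± 0.34 in SI against CI (adjusted p = 0.00266) and by 1.26 ± 0.34 in S against C (adjusted p = 0.0206). Its second probe set gave 1.67 ± 0.36 and 1.13 ± 0.36. The S against C call was lost without any one of C replicate 1, C replicate 3 and S replicate 2 (adjusted p 0.00927 to 0.0701). *Slc6a6*, which rose in these soy protein livers, and *Slc6a13*, which fell in them, both encode carriers of taurine.

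*Slc43a2* (LAT4), like *Slc43a1* a carrier of large neutral amino acids, rose by 0.44 ± 0.09 in SI against CI (adjusted p = 0.00323). It rose by 0.31 ± 0.09 in S against C (adjusted p = 0.0423), a call lost without any one of 6 arrays, C replicates 3, 4 and 5 and S replicates 2, 3 and 5 (adjusted p 0.0310 to 0.159). *Slc25a12*, a mitochondrial aspartate and glutamate exchanger, rose by 0.56 ± 0.13 in SI against CI and by 0.66 ± 0.13 in S against C (adjusted p = 0.00619 and 0.00184). *Slc38a10* rose by 0.33 ± 0.09 in SI against CI (adjusted p = 0.0153).

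The glutamate carrier *Slc1a2* averaged 8.30 ± 0.34 in SI, 7.04 ± 0.32 in CI, 8.16 ± 0.12 in S, 6.99 ± 0.30 in C, 8.18 ± 0.45 in T10 and 8.68 ± 0.56 in T20. All 5 CI and all 5 C livers lay below the filter level of 7.39, so the gene was tested through the diets where it was high. It was called in 5 comparisons and is among the 6 and 4 carriers that rose. Without it the counts were 5 and 3 of 31. Its T10 against C call was lost without either C replicate 3 or T10 replicate 2 (adjusted p 0.00182 to 0.0522), and without T10 replicates 3, 4 and 5 together (adjusted p = 0.224). *Slc6a9*, a glycine transporter, fell by 0.57 ± 0.12 in T20 against C (adjusted p = 0.00610), and its other probe sets gave -0.45 and -0.59. It fell by 0.45 ± 0.12 in T20 against CI (adjusted p = 0.0399), a call lost without any one of 5 arrays, T20 replicates 1, 2 and 5 and CI replicates 3 and 4, with adjusted p from 0.0169 to 0.119. The T20 against CI call was also lost with median-centred arrays, with no filter and with array weights. Its other probe sets did not pass there, at -0.35 and -0.49 (adjusted p = 0.0546 and 0.0717). *Slc16a10*, a carrier of aromatic amino acids, was 0.97 ± 0.26 higher in T20 than in SI (adjusted p = 0.0331). That call was lost without any one of T20 replicates 1 and 5 and SI replicates 1, 2 and 5, with adjusted p from 0.0219 to 0.0945.

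**Figure D4:**
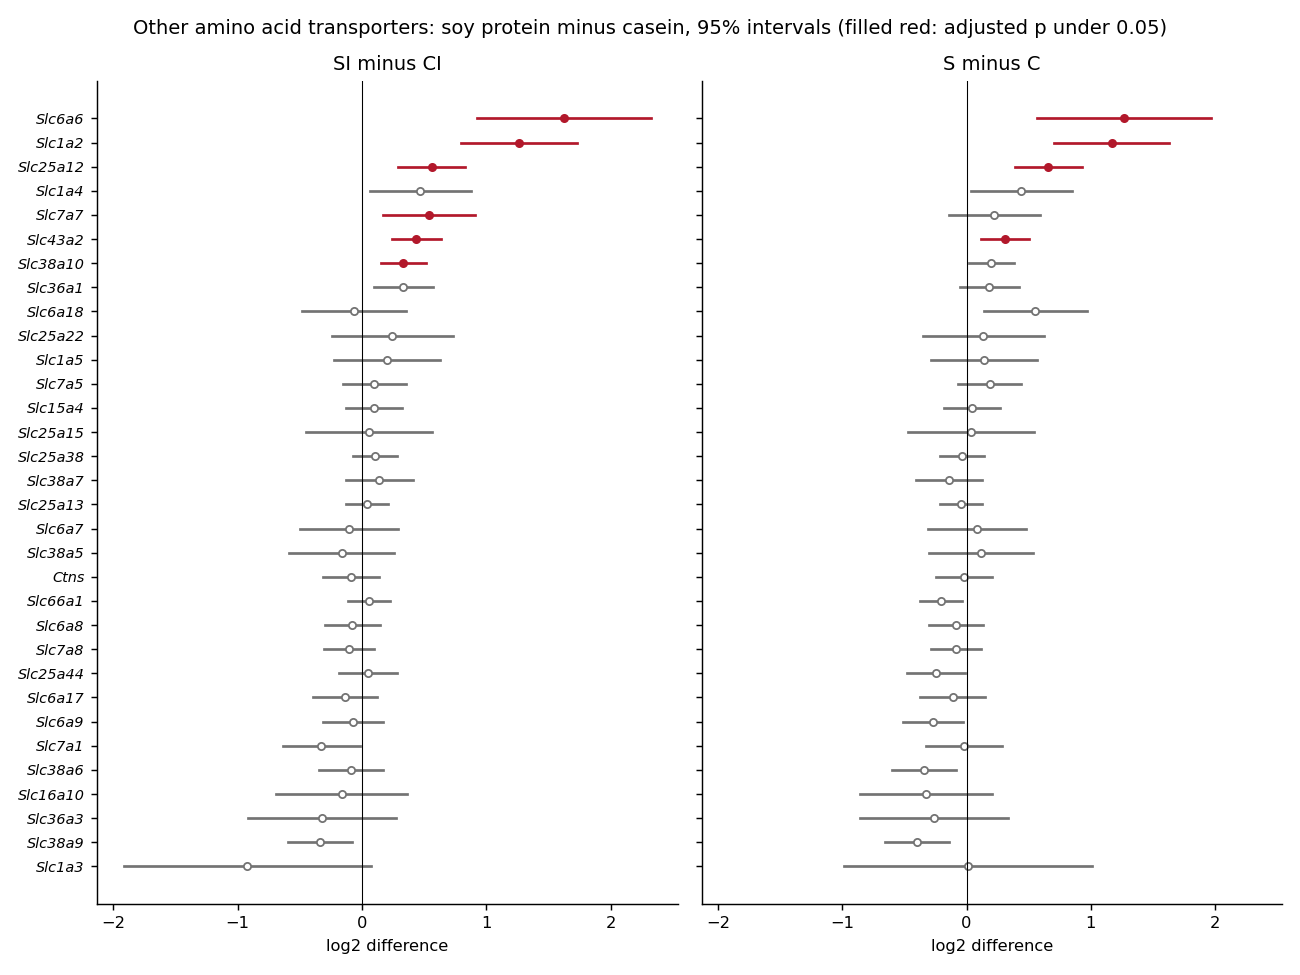
Log2 differences with 95% intervals (x axes) of 32 further amino acid transporters (y axis) for SI minus CI and S minus C, with filled red points where the adjusted p was under 0.05. *Slc6a6* has the highest difference in both panels, 1.63 and 1.26, and no filled point lies below 0.

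Genes of the response to scarce amino acids, the ATF4 pathway, were counted beside the transporters. The list held *Atf4* itself and the upstream kinase gene *Eif2ak4* as well as genes switched on by the pathway. Of 22 tested, 4 rose and 2 fell in SI against CI, 3 rose in S against C, and 5 fell in T20 against SI. Over all tested probe sets, 5.5% rose and 6.14% fell in the first, 2.99% rose in the second and 1.87% fell in the third. The count of 6 in SI against CI was 3 without CI replicate 5, and ran from 3 to 7 over single arrays left out. The count of 5 in T20 against SI was 2 or 3 without any one of SI replicates 2, 4 and 5 and T20 replicates 1, 4 and 5. In S against C it was 2 to 3. Of the 3 calls there *Eif4ebp1*, at 0.28 (adjusted p = 0.0499), held in 7 of the 30 fits that left out 1 array. With median-centred arrays 9 rose and 1 fell in SI against CI. The 2 that fell there in the main fit were *Vldlr* (-0.66) and *Eif2ak4* (-0.47). *Eif2ak4* lost its call under every other scaling, and *Vldlr* with equal median and spread. The median differences were 0.18 in SI against CI, 0.15 in S against C and -0.19 in T20 against SI. *Aldh18a1*, an enzyme of proline synthesis, rose by 1.21 ± 0.14 in SI against CI and by 1.04 ± 0.14 in S against C (adjusted p = 2.33e-06 and 1.76e-05). *Asns* (asparagine synthetase) rose by 1.70 ± 0.24 in SI against CI and by 1.67 ± 0.24 in S against C (adjusted p = 3.99e-05 and 5.29e-05). Of the 8 transporters, that pathway is known to raise *Slc38a2* and *Slc3a2*. *Slc38a2* passed in none of these comparisons and *Slc3a2* only in SI against CI. In T20 against SI *Slc38a2* had -0.11 ± 0.25 (adjusted p = 0.859) and *Slc3a2* -0.29 ± 0.15 (adjusted p = 0.291).

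Covariation of the 8 genes among rats on the same diet was examined next. Over 28 pairs, the correlation of deviations from the diet means across 30 arrays ran from -0.34 to 0.44, and 0 pairs passed after adjustment over the 28 (lowest adjusted p = 0.547 for Pearson's r and 0.381 for Spearman's rho, by 100000 permutations within diets). At an unadjusted p under 0.05 there were 0 pairs by r and 1 by rho. The highest r, between *Slc7a2* and *Slc38a3*, was 0.44 (permutation p = 0.0851, rho = 0.29 with permutation p = 0.185) and became 0.24 without the 2 arrays farthest from the median of *Slc7a2*. *Slc3a1* and *Slc38a3* had r = -0.33 and rho = -0.47 (permutation p = 0.0888 and 0.0136).

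**Figure D5:**
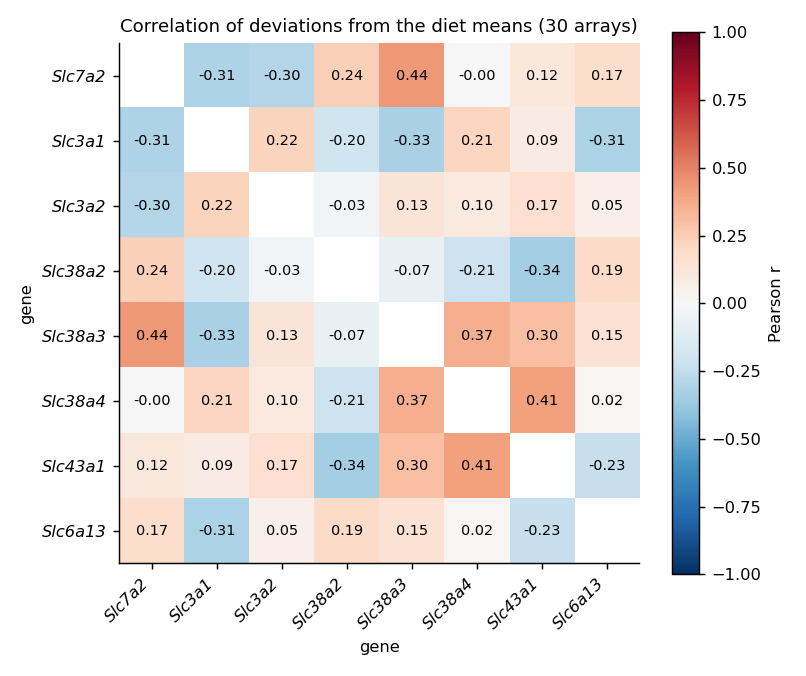
Pearson correlation between each pair of the 8 transporters (both axes), computed over 30 arrays from deviations from the diet means, with colour from blue (-1) to red (1). Most cells are pale, the strongest being 0.44 for *Slc7a2* with *Slc38a3*.

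Among 10698 other tested genes, those most like each transporter were taken by Pearson's r over the 30 arrays, which share diets as well as array effects. *Slc6a13* was most like *Sh3gl3* (r = 0.86), *Vegfb* (0.85) and *Arpc1b* (0.85). With the diet means subtracted, these became 0.50, 0.63 and 0.60. *Slc3a2* was most like *P4ha2* (0.74, or 0.57 with the diet means subtracted), *Esrra* (0.69, or 0.55) and *Eif5a* (0.68, or 0.40).

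For *Slc38a3* and *Slc38a2*, which passed in no comparison, the correlations were higher with the diet means subtracted. *Slc38a3* was most like *Xylb* (0.80, or 0.87 with the diet means subtracted), *Epas1* (0.79, or 0.81) and *Gaa* (0.79, or 0.82). *Slc38a2* was most like *Mfsd2a* (0.75, or 0.79), *Tsku* (0.74, or 0.76) and *Pkdcc* (0.66, or 0.73). *Slc43a1* was most like *Myd88* (0.76), *Pigq* (0.74) and *Suds3* (0.74), and *Slc38a4* was most like *Abhd14b* (0.77), *Cyp4f4* (0.74) and *Zcchc24* (0.73). *Slc7a2* was most like *Ankzf1* (0.70), *Nfkbiz* (0.69) and *Got1* (0.69), and *Slc3a1* was most like *Riok3* (0.62), *Sco1* (0.62) and *Srl* (0.60).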

How the data were processed

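Per the labels, biotinylated cRNA was made from total liver RNA. The authors deposited 1 linear intensity per probe set and array, normalized with the SuperNORM service per the labels; the scale's reference is not stated in those labels. The labels list identical normalization parameters for CI replicate 3 and C replicate 3. Of 31099 probe sets, 57 controls were left out. Values under 16 were set to 16 before taking log2, and probe sets above the 40th percentile of mean log2 intensity (7.39, an intensity of 167.6) were tested. Gene names came from the platform annotation, and of several tested probe sets the one with the highest mean stood for a gene. One limma 3.58.1 model (R 4.3.3) held all 6 diets (24 residual degrees of freedom, variance trend, two-sided), with Benjamini-Hochberg adjustment over 18625 probe sets within each of 10 comparisons. The number of arrays limits the precision. The test was run on simulated data first. The 8 genes and all lists were chosen with earlier results of these data known. Named genes were all 8, the called further transporters, light chains of the heavy chains, the called ATF4 pathway genes and the 3 genes most like each member. Replicate numbers were not taken to pair animals. Alternatives were other scalings, filters and floors, no variance trend, array weights, a replicate block, a threshold of 0.01, the compared groups alone and each array left out. Promoters came from RefSeq. Plots used matplotlib 3.10.9 (Python 3.11.15).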

Additional observations from a re-analysis of the deposited data

Results flagged for a closer look

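In groups of 5, a liver was set apart where its gap to the nearest other liver exceeded 0.71 of the range of the group. This held in 5 of 48 groups of gene and diet, 3 of them in the S diet; chance alone gives about 1 in 20 groups. *Slc6a13* was lowest in S replicate 2, at 11.19. *Slc3a1* was lowest in S replicate 4, at 7.38, and *Slc38a2* was highest in the same liver, at 11.15. *Slc38a4* was highest in T20 replicate 5, at 14.32, and in C replicate 2, at 14.23. The call of *Slc6a13* in S against C held without S replicate 2, as it did without each other array.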

How the results depend on the processing

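The counts of the 8 transporters called kept their value under most alternatives. Scaled to equal median and spread, the data gave 1 in T20 against C, 1 in T10 against C and 2 in S against C, *Slc3a2* being the added gene. At a threshold of 0.01 it was 0 in T20 against SI, 0 in SI against CI and 1 over all diets, and with only the compared groups 0 in T20 against SI. With 1 array left out it was 1 to 2 in S against C, 1 to 2 in SI against CI and 0 to 1 in T20 against SI. Of 80 differences, 4 were called and 73 were called in none of 45 settings; 27 of the 73 turned sign in at least 1 setting, the largest of these being 0.14 in size. Leaving out C replicate 3 and CI replicate 3 together, or T10 replicates 3, 4 and 5 together, changed the call of none of the 80. Several further carriers lost calls with only the compared groups. These were *Slc1a2* in T10 against C, *Slc43a2* in S against C and *Slc7a7* in SI against CI. *Slc6a9* in T20 against C and against CI, and *Slc16a10* in T20 against SI, were lost as well. Of the 30 medians over all probe sets under another scaling, 1 moved by over 0.1, that of SI against CI, by 0.11 with each array centred on its median. Calls over the table were higher in 47.3% in SI against CI, 41.2% in S against C and 46.6% in T20 against SI, and under other scalings in 61% to 80.6%, 51% to 55.8% and 18.2% to 52.7%.

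With the replicate block the count of the 8 genes was 1 in S against C, 2 in SI against CI, 1 in T20 against SI and 2 over all diets, as without it. Same-numbered arrays had a median correlation of 0.05 in their deviations from the diet means (-0.28 to 0.35), against -0.01 for different numbers (-0.37 to 0.40). The correlation was over 0.1 in 22 of 75 same-numbered pairs and in 50 of 300 others. Of 30 arrays, 8 correlated best with one of their own number. The numbers were not taken as pairs, and a shared effect of the number was not tested.

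Fainter signals limit *Slc7a2*, near the filter level, and SEs of 0.15 to 0.27 limit what 5 livers per diet can show between 2 diets for the genes other than *Slc38a4*. P-values measure the spread between rats of one experiment.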

Other observations

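Further genes of the amino acid response passed in some comparisons. *Sesn2* rose by 0.65 in SI against CI (adjusted p = 0.0230) and had -0.66 in T20 against SI (adjusted p = 0.0444). Those calls held in 27 and 17 of the 30 fits that left out 1 array. *Psat1*, an enzyme of serine synthesis, rose by 0.77 ± 0.23 in SI against CI (adjusted p = 0.0264) and was lower by -0.81 ± 0.23 in T20 than in SI (adjusted p = 0.0431). The T20 against SI call was lost without any one of 6 arrays, T20 replicates 1, 2, 4 and 5 and SI replicates 4 and 5, with adjusted p from 0.0299 to 0.133, and the SI against CI call without any one of CI replicates 3 and 5 and SI replicates 4 and 5 (adjusted p 0.0117 to 0.0993). In the main fit *Nupr1*, a stress-induced chromatin protein, was the 1 gene of the list called in tofu against casein, at -0.78 ± 0.17 in T20 against CI (adjusted p = 0.0111) and -0.60 ± 0.17 in T20 against C (adjusted p = 0.0375). Without CI replicate 4 the first had adjusted p = 0.0563, and the second was lost without any one of 7 arrays, T20 replicates 1, 3 and 5 and C replicates 1 to 4, with adjusted p from 0.0246 to 0.0913. Both calls were lost with only the compared groups. The T20 against C call was also lost with no filter, with quantile normalization and with equal median and spread. Under that last scaling 1 gene of the list rose and 0 fell in T20 against C.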
